A study of Mus musculus with 3 samples.

Results

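At 8 mouse loci the OGT library held dense, abruptly bounded blocks of reads that the other libraries lacked: Rnf40, Rnf20, Tet2, Uhrf1, Vezf1, Ints6, Trp53 and Cdkn1c. The loci are fixed mm9 windows and were chosen for these OGT reads, so the excess of OGT and the shape of the blocks are descriptions and were not tested. A block here is a run of aligned reads, joined over uncovered gaps of up to 20 bp, with at least 10 distinct 5′ ends, a distinct end being 1 position on 1 strand. The 8 windows span 303 kb and held 69 of the 748 OGT blocks found on chromosomes 1 to 19 and X. They held 0 of 3072 TET2 blocks and 0 of 1426 H2B S112GlcNAc blocks. The windows are so small a part of the genome that most stretches of this size would hold none of these. The counts of 0 are therefore not particular to the 8 loci. The gene names are those given to the windows when the loci were chosen. No exon annotation of mm9 was used here, so block lengths and spacing were measured but were not matched to exons, and no sequence of a block was read.

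The libraries came from mouse embryonic stem (ES) cells of strain C57BL/6, for which no treatment is named and which were kept on gelatin without feeder cells in medium with serum and ESGRO. Chromatin immunoprecipitation used an in-house mouse TET2 antibody, a commercial OGT antibody and an antibody against histone H2B carrying O-GlcNAc on a serine, the mark H2B S112GlcNAc, with 1 library for each. The libraries held 2179445 OGT, 3832237 TET2 and 4647963 H2B S112GlcNAc reads of 44 bp, and no input library was used here. As each antibody had a single library, no difference was checked over replicates, and every interval below is a 95% interval for counting error alone. Intervals on reads count repeats of a distinct end as separate. OGT reads at the loci averaged 2.64 per distinct end, so those intervals can be too narrow. Reads do not measure expression, so the cell type was not checked against marker genes. The reads of all 3 libraries carry the name of 1 flow cell lane. The OGT file names its reference sequences by RefSeq identifiers and the other files by chromosome names, and whether the alignment differed otherwise was not tested. This difference and the antibody cannot be told apart.

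OGT is the enzyme that places O-GlcNAc on serines and threonines of nuclear and cytoplasmic proteins, and it binds the TET enzymes, which oxidise 5-methylcytosine. O-GlcNAc on histone H2B is known to favour ubiquitination of the same histone by the ligase formed by RNF20 and RNF40. In an mRNA the exons are joined, whereas in the chromosome they lie apart, separated by introns that are mostly longer. In chromatin immunoprecipitation, reads of the 2 strands usually pile up on opposite sides of a bound site, about a fragment length apart. This strand offset and the ends of the blocks were therefore measured at each locus.

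Most OGT reads at the loci lay in a small part of the sequence. The blocks covered 10070 bp, or 3.32% of the windows, and held 10017 of 10438 OGT reads (96.0%), which is 0.460% of the whole OGT library. In bins of 100 bp, OGT reached 739 reads and had at least 10 reads in 121 of 3030 bins. The highest bin held 5 reads in the TET2 library and 5 in the H2B S112GlcNAc library, and neither had a bin with 10. At least 5 OGT reads on each strand were found in 72 bins.

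**Figure D1:**
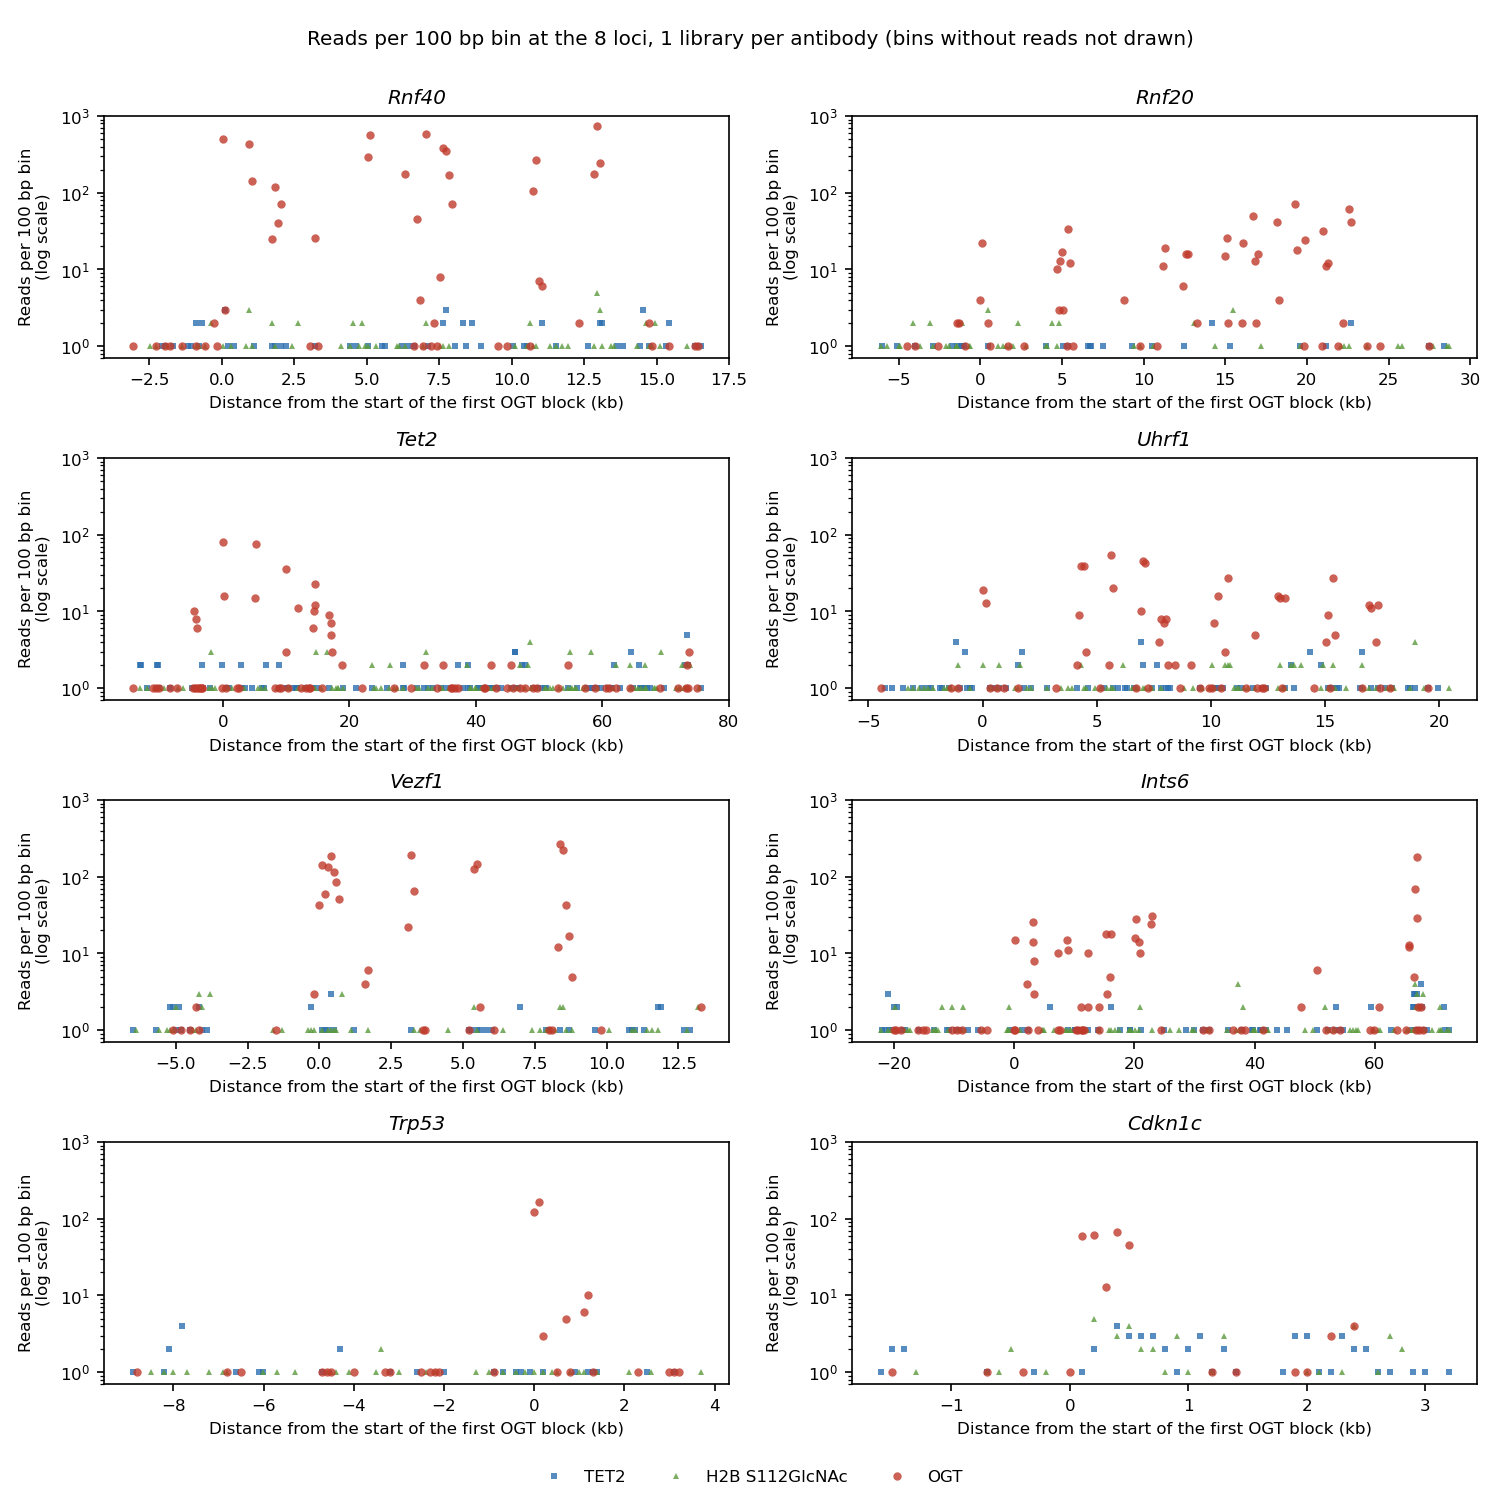
Reads in each 100 bp bin (vertical axis, log scale) against the distance from the start of the first OGT block in kb, in 1 panel for each locus. Red circles are OGT, blue squares TET2 and green triangles H2B S112GlcNAc. OGT bins rise in separate groups to as many as 739 reads, while no bin of the other libraries exceeds 5.

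Over all 8 windows the TET2 library had 554 reads at 524 distinct ends, the OGT library 10438 at 3948, and the H2B S112GlcNAc library 645 at 619. The density of distinct ends, divided by each library's total of distinct ends, was 13.2 times higher for OGT than for TET2 (12.1 to 14.5) and 13.7 times higher than for H2B S112GlcNAc (12.5 to 14.9). Counting every read gave 33.1 and 34.5, and counting distinct ends in the blocks alone gave 137.3 and 100.1. A short block has few possible positions, so distinct ends understate the densest blocks. Every one of the 69 blocks was at least 4 times denser in OGT than in each other library, against 22.7% of all OGT blocks. The loci were chosen on this contrast, so nothing is read from that share.

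Both ends were sharp in 45 of the 69 blocks, against 48.3% of all OGT blocks. An end was called sharp when the outermost plus-strand and minus-strand reads reached within 15 bp of each other. In a further 22 blocks 1 end was sharp, and in 2 blocks, both at Uhrf1, neither was. Of the 138 block ends 81.2% were sharp, and at 73 of them the strands stopped within 2 bp. At 130 of the 138 ends no OGT read lay wholly within the next 100 bp outside. A read within 20 bp of an end would have joined the block, and OGT reads between blocks were sparse, at 1.65 per kb. Such empty stretches therefore say little about how abrupt an end is.

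In most blocks the strands were displaced by about the length of a read. The median minus-strand 5′ end lay a median of 43.5 bp to the right of the median plus-strand 5′ end, and in 54 of the 69 blocks the distance was within 15 bp of 43 bp. Single blocks ranged from -34.5 to 72 bp. A distance of 43 bp is what reads of 44 bp give when both strands fill the same stretch. In a short block the distance cannot lie far from 43 bp, by construction. For all TET2 blocks the median distance was 64.2 bp, and 25.6% of them lay within 15 bp of 43 bp. For all H2B S112GlcNAc blocks the values were 45 bp and 44.3%. The 578 OGT blocks elsewhere without a 4-fold excess over each other library had 42 bp and 61.6%, so a median near the read length was not particular to the 8 loci. TET2 and H2B S112GlcNAc blocks were longer, with median lengths of 264 and 231 bp against 132 bp at the 8 loci. The part of block length in these distances was not tested. Reads pointing into an OGT block and reads pointing out of it had nearly the same profile from the end inwards, with 6.36 and 6.39 distinct reads per block in the first 10 bp. In TET2 blocks the values there were 2.43 and 1.96.

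**Figure D2:**
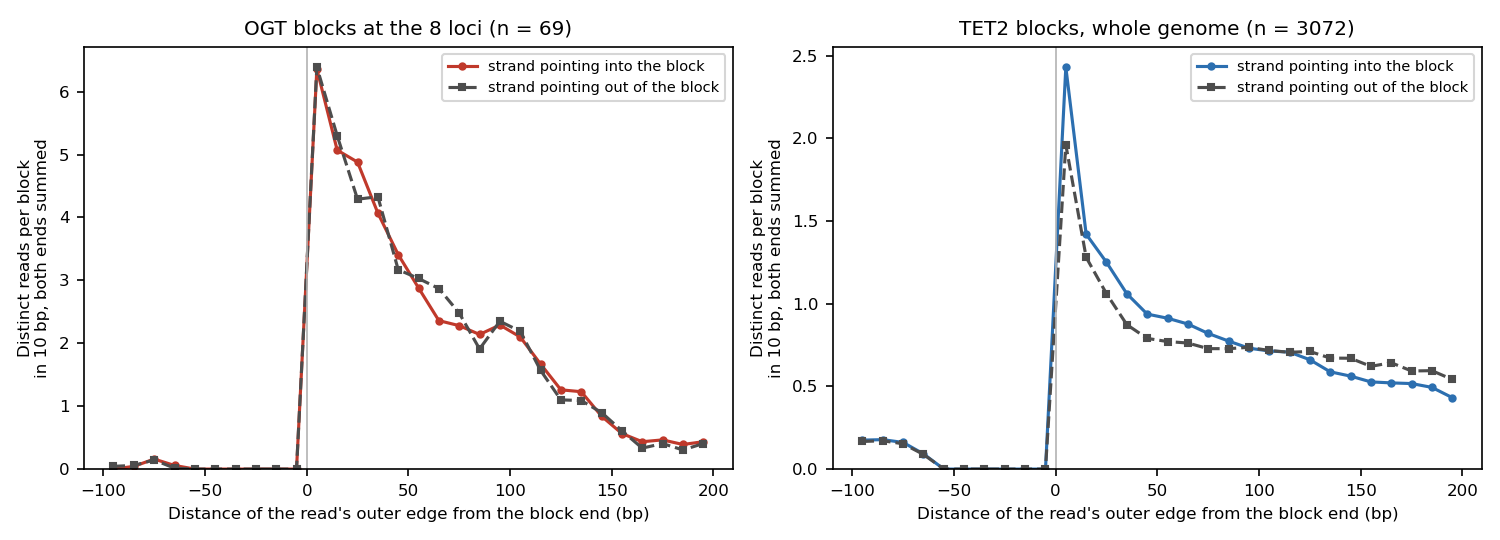
Distinct reads per block in steps of 10 bp (vertical axis, both ends summed) against the distance in bp of a read's outer edge from the block end, for the 69 OGT blocks at the 8 loci and the 3072 TET2 blocks of the whole genome. Solid lines are reads pointing into the block and dashed lines reads pointing out; the empty stretch just left of 0 follows from how a block is defined. The 2 lines run close together for OGT, and for TET2 the inward strand is higher near the end and lower deep inside.

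The blocks were short, with a median length of 132 bp and a range of 56 to 753 bp. Of the 69, 66 (95.7%) were no longer than 300 bp. So were 92.1% of the 101 OGT blocks elsewhere with a 4-fold excess over each other library, whose median was 77 bp. The share was 77.5% in the other 578 OGT blocks, 64.6% in TET2 blocks and 69.2% in H2B S112GlcNAc blocks. The 61 gaps between neighbouring blocks at the 8 loci had a median of 1095 bp and ranged from 30 to 42734 bp. Only 2 gaps, at Rnf40 and Uhrf1, were under 50 bp. Read density differed more than length did, by 156.4-fold from the sparsest block to the densest. Per possible 5′ end position, blocks held from 0.0559 OGT reads at Uhrf1 to 8.74 at Rnf40.

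**Figure D3:**
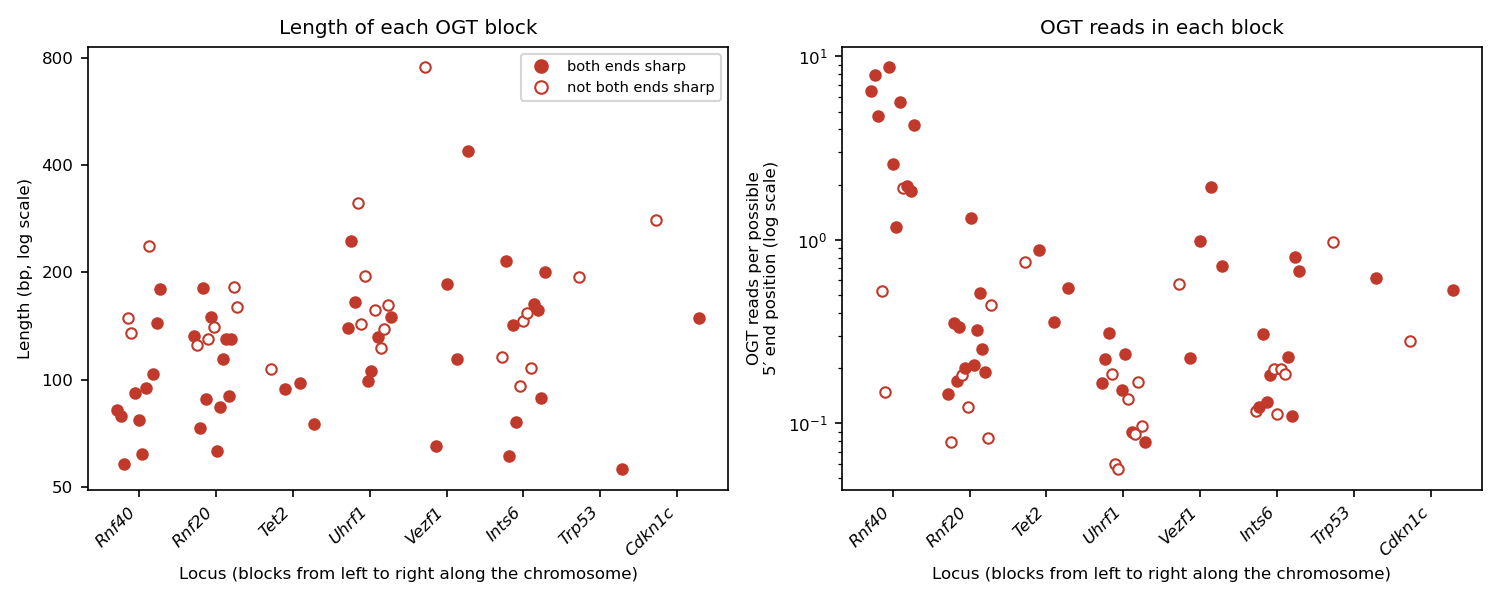
Length of each OGT block in bp (left, log scale) and OGT reads per possible 5′ end position in each block (right, log scale), by locus, with blocks in chromosome order. Filled circles have both ends sharp and open circles do not. Of the 69 blocks 66 are no longer than 300 bp, while reads per position run from 0.0559 to 8.74.

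Rnf40 and Rnf20 encode the paired subunits of the ligase that ubiquitinates histone H2B. The Rnf40 window, on chromosome 7 at 134730001 to 134750000, held 65 TET2, 5583 OGT and 72 H2B S112GlcNAc reads. It had the most OGT reads of the 8, and 99.1% of them fell in 13 blocks with a summed length of 1494 bp. The OGT density was 26.2 times that of TET2 in distinct ends (20.1 to 34.6) and 151.0 times in reads (118.3 to 196.0). The OGT reads here averaged 6.24 per distinct end, against 1.08 for TET2.

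The Rnf40 blocks differed widely in how fully they were covered: 5.43% to 98.7% of the positions at which a read could lie were used, with a median of 52.9% over the 13 blocks and at least 90% in 3 of them. In the fullest, on chromosome 7 at 134733120 to 134733201 and 82 bp long, 507 OGT, 0 TET2 and 1 H2B S112GlcNAc reads were found, and the OGT reads used 77 of the 78 positions. Its plus-strand and minus-strand reads began and stopped at the same base pair at both ends, with 38 plus-strand and 39 minus-strand ends. The block with the most reads, 180 bp long at 134745975 to 134746154, held 1156 OGT, 2 TET2 and 8 H2B S112GlcNAc reads at 206 OGT ends. The other blocks among the 4 with the most ends, of 237 bp from 134740661 and of 144 bp from 134743818, held 745 and 372 OGT reads. The busiest position of a block took from 2.16% of its reads, in the block from 134745975, to 33.3%, in the blocks from 134736289 and 134739827, which had 10 distinct ends each. Among the 13 blocks the reads per possible position ranged from 0.147 to 8.74, a 59.6-fold spread within 1 window. The sparsest, from 134736289, had 10 ends, the minimum for a block, so this spread depends on that minimum. Of the 13 blocks 10 had both ends sharp.

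At Rnf20, on chromosome 4 at 49640001 to 49675000, OGT had 682 reads, TET2 29 and H2B S112GlcNAc 58. Its 16 blocks, the most of any locus, ran over 22699 bp with a median length of 130 bp and a median gap of 955 bp. OGT was 29.5 times denser than TET2 in distinct ends (20.3 to 44.6) and 19.7 times denser than H2B S112GlcNAc (14.8 to 26.7). The block with the most ends, 160 bp from 49668691, held 103 OGT reads, 1 TET2 read and 1 H2B S112GlcNAc read. The next, 130 bp from 49665401, held 89 OGT reads and none of the others, and its ends were sharp to 4 and 3 bp. Blocks of 181 bp from 49651498 and of 150 bp from 49661154 held 47 and 43 OGT reads and were sharp to within 2 bp at all 4 ends. The OGT reads averaged 1.4 per distinct end.

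Tet2 and Uhrf1 act on DNA methylation: TET2 oxidises 5-methylcytosine, and UHRF1 brings the maintenance methyltransferase to newly copied DNA. The Tet2 window, on chromosome 3 at 133120001 to 133210000, held 137 TET2, 408 OGT and 150 H2B S112GlcNAc reads. It had the lowest OGT excess of the 8, at 3.78 times TET2 (3.04 to 4.71) and 4.09 times H2B S112GlcNAc (3.32 to 5.05) in distinct ends over the whole window. Only 4 blocks were found, of 107, 94, 98 and 75 bp from 133134304, 133139480, 133144297 and 133148884. They held 97, 90, 39 and 35 OGT reads, with 0 TET2 and 0 H2B S112GlcNAc reads in any of them. They took 64.0% of the OGT reads of the window, a lower share than at any other locus.

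Further short runs were found at Tet2 below the minimum of 10 ends. There were 6 runs with 5 to 9 ends, between 46 and 54 bp long, and all 6 were called sharp at both ends. A run of that length with reads on both strands meets the 15 bp tolerance by construction, so the call says nothing about its ends. With the minimum lowered to 5 ends Tet2 had 10 blocks in place of 4. At the other 7 loci together there were 7 runs of 5 to 9 ends. Just inside the minimum, 8 of the 69 blocks had 10 or 11 ends, and just outside it 4 runs had 8 or 9.

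Uhrf1, on chromosome 17 at 56440001 to 56465000, held 91 TET2, 547 OGT and 105 H2B S112GlcNAc reads. OGT was 9.40 times denser than TET2 (7.46 to 12.0) and 9.88 times denser than H2B S112GlcNAc (7.95 to 12.4) in distinct ends. Its 14 blocks had a summed length of 2269 bp, the largest of the loci, but the lowest pooled density, at 304.1 reads per kb of start positions, with a range from 0.0559 to 0.311 reads per possible position. The leading blocks, of 313, 245 and 165 bp from 56451440, 56448761 and 56450094, held 100, 90 and 76 OGT reads, and the fourth, of 157 bp from 56457420, held 31. Both ends were sharp in 7 of the 14. The part of the low density in this count was not tested.

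Vezf1 and Trp53 encode DNA-binding transcription factors, a zinc finger protein and the tumour suppressor p53. The Vezf1 window, on chromosome 11 at 87880001 to 87900000, held 49 TET2, 1968 OGT and 59 H2B S112GlcNAc reads. The OGT density was 37.9 times that of TET2 (28.4 to 51.7) and 38.9 times that of H2B S112GlcNAc (29.8 to 51.8) in distinct ends, the highest of the 8 loci. In reads the ratios were 70.6 and 71.1, below the 151.0 and 165.4 of Rnf40. The 5 blocks took 98.9% of the OGT reads. They included the longest of all, 753 bp from 87886557, with 815 OGT, 7 TET2 and 5 H2B S112GlcNAc reads. Blocks of 438 bp from 87894896, 185 bp from 87889689 and 114 bp from 87891945 held 568, 280 and 274 OGT reads.

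The long Vezf1 blocks were made of shorter stretches that no read crossed. With reads joined only where they overlap or touch, the block of 753 bp gave runs of 427, 124 and 138 bp, which lay 8 bp and 1 bp apart, and a remainder with fewer than 10 ends. Each of the 3 runs was sharp at both ends. The block of 438 bp gave runs of 218 and 218 bp, 2 bp apart, with 514 and 54 reads. At the 8 loci 72 such runs were found, 52 of them sharp at both ends, and 4 pairs of neighbours lay under 20 bp apart, 3 of them at Vezf1. Breaks in the OGT reads were thus found within blocks as well as at their ends.

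Trp53, on chromosome 11 at 69393001 to 69406000, held 29 TET2, 335 OGT and 36 H2B S112GlcNAc reads and had 2 blocks. OGT was 7.14 times denser than TET2 (4.72 to 11.1) in distinct ends and 20.3 times denser in reads (13.9 to 30.8). Of the OGT reads 293 lay in a block of 194 bp from 69401953, with 0 TET2 reads and 1 H2B S112GlcNAc read, and 16 in a block of 56 bp from 69403085. In the longer block 290 of the reads fell in its first 90 bp, a run of touching reads whose strands began and stopped at the same base pairs. Plus-strand reads made up 33.4% of the longer block, within the range of 30.3% to 83.3% over single blocks.

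Ints6 encodes a subunit of Integrator, the complex that cleaves nascent transcripts of RNA polymerase II. The window, on chromosome 14 at 63290001 to 63385000, held 98 TET2, 654 OGT and 121 H2B S112GlcNAc reads. OGT was 9.08 times denser than TET2 (7.25 to 11.5) and 8.64 times denser than H2B S112GlcNAc (7.05 to 10.7) in distinct ends. The 13 blocks fell into 2 groups 42734 bp apart. The 3 blocks of the right-hand group, of 157, 89 and 201 bp from 63378035, 63378999 and 63379381, held 25, 74 and 213 OGT reads. In the left-hand group of 10 the leading blocks, of 163 and 215 bp from 63335138 and 63315428, held 55 and 42. The densest 500 bp of TET2 and of H2B S112GlcNAc in the window, with 11 ends each, both overlapped blocks of the right-hand group.

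Cdkn1c encodes p57, an inhibitor of cyclin-dependent kinases, and is expressed from the maternal allele. Its window, on chromosome 7 at 150643001 to 150648000, held 56 TET2, 261 OGT and 44 H2B S112GlcNAc reads. OGT was 6.53 times denser than TET2 (4.82 to 9.0) and 10.3 times denser than H2B S112GlcNAc (7.32 to 14.7) in distinct ends. The 2 blocks, of 281 bp from 150644650 and of 149 bp from 150645011, lay 80 bp apart and held 134 and 113 OGT reads. TET2 reads were also dense here, at 11.2 reads per kb over the window against a mean of 1.45 per kb over chromosomes 1 to 19 and X, and H2B S112GlcNAc reads were at 8.80 against 1.76. Cdkn1c was thus the locus with the highest density of both other libraries, and blocks of OGT and the densest 500 bp of TET2 and H2B S112GlcNAc overlapped.

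Within the stretch from the first to the last block of each locus, OGT reads between the blocks were sparse. Pooled over the loci the density was 1.65 reads per kb (1.44 to 1.88) between blocks and 1410.2 (1382.8 to 1438.1) inside them, against 0.825 over the genome. The loci differed, from 0.801 between blocks at Ints6 (0.598 to 1.05), which makes up 64.9 of the 132.8 kb pooled, to 7.82 at Trp53 (3.14 to 16.1), and Cdkn1c had no read in its single short gap. Between blocks TET2 was at 1.32 reads per kb (1.13 to 1.53) against 1.45 over the genome, and H2B S112GlcNAc at 1.57 (1.36 to 1.79) against 1.76. The OGT value between blocks also holds the runs that missed the minimum of 10 ends.

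The few TET2 and H2B S112GlcNAc reads were denser inside the OGT blocks than between them. The loci were chosen partly for few such reads, so this too is a description. A density here is reads per kb of positions at which a read could start. H2B S112GlcNAc had 79 reads wholly inside a block, at 11.1 per kb (8.81 to 13.9), which was 7.10 times the density between blocks (5.41 to 9.24). TET2 had 49, at 6.90 per kb (5.10 to 9.12), a ratio of 5.23 (3.73 to 7.22). These pooled ratios weight the loci differently inside and between blocks. Ints6 made up 64.9 of the 132.8 kb between blocks but 1.17 of the 7.10 kb inside. Its densities between blocks were low, at 0.955 for H2B S112GlcNAc and 0.785 for TET2. The pooled ratios can therefore be too high, and their intervals do not cover this. Across a block end, where a read holds sequence from both sides, the densities were lower than inside. They were 2.53 for H2B S112GlcNAc (1.41 to 4.17) and 2.36 for TET2 (1.29 to 3.96).

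The loci differed in this respect. At Rnf40 the H2B S112GlcNAc density was 23.5 inside (14.7 to 35.6) against 2.45 between blocks (1.61 to 3.56), and at Ints6 11.2 (5.94 to 19.1) against 0.955 (0.732 to 1.22). At Vezf1 it was 10.4 (5.71 to 17.5) against 1.84 (0.982 to 3.15), and at Uhrf1 9.60 (5.49 to 15.6) against 3.98 (3.02 to 5.14). In all 4 the intervals were separate. At Rnf20 the values were 1.56 (0.188 to 5.62) and 1.39 (0.927 to 2.02), whose intervals overlapped. The Tet2 blocks held no read of either library, and their short length allows up to 18.3 per kb. For TET2 the intervals inside and between blocks did not meet at Rnf40, Vezf1 and Ints6. The libraries shared a flow cell lane, and the part of this in these counts was not tested.

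**Figure D4:**
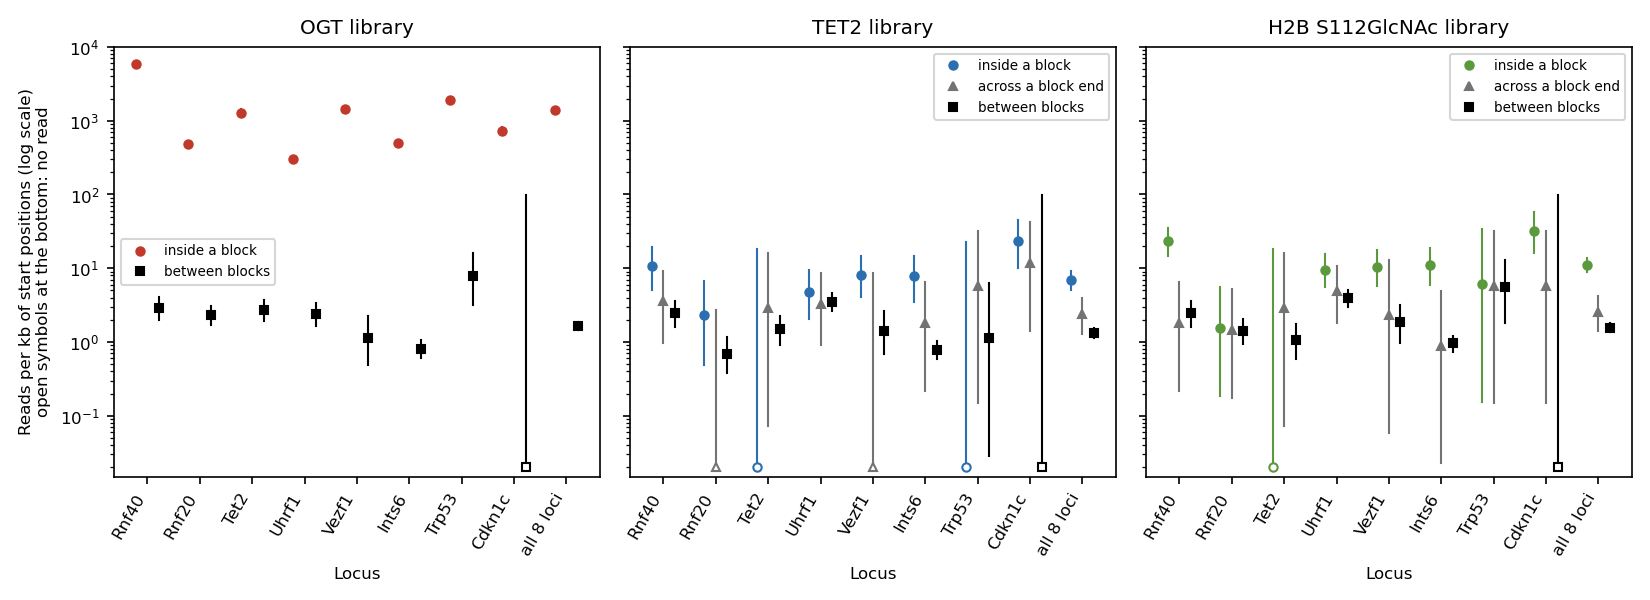
Reads per kb of possible start positions (log scale) at each locus and pooled, for reads wholly inside an OGT block, across a block end and between blocks, with 95% Poisson intervals. The class across a block end is left out for OGT, where it is 0 by definition, and open symbols mark classes with no read. Pooled H2B S112GlcNAc and TET2 lie at 11.1 and 6.90 inside blocks, above 1.57 and 1.32 between them.

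Blocks of the same kind were also found elsewhere in the OGT library. Outside the 8 loci 101 of 679 OGT blocks (14.9%) were at least 4 times denser than in each other library, and 75 of these (74.3%, 64.6 to 82.4) were sharp at both ends, against 65.2% (52.8 to 76.3) at the 8 loci. The intervals overlap, and the difference was not tested. Blocks under 60 bp are sharp by construction once both strands are present, and there were 14 of these among the 101 and 2 among the 69. Without them the shares were 70.1% (59.4 to 79.5) and 64.2% (51.5 to 75.5). The median strand distance was 43.5 bp in both sets. It lay within 15 bp of 43 bp in 84.2% of the 101 blocks and 78.3% of the 69. Blocks at the 8 loci were longer, with a median of 132 bp against 77 bp. Their quartiles were 94 and 160 bp against 63 and 130 bp, so the sets overlapped widely.

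Among the other 578 OGT blocks outside the loci the median length was 150.5 bp, and 59.4% of ends were sharp. The share of sharp ends was 81.2% at the 8 loci and 85.6% among the 101 blocks elsewhere with the 4-fold excess. Sharp ends were thus not particular to the 8 loci. In all, 46.5% of OGT blocks outside the loci (42.7 to 50.4) were sharp at both ends, as were 24.5% of H2B S112GlcNAc blocks (22.3 to 26.9) and 12.3% of TET2 blocks (11.2 to 13.5). These shares depend on how many ends a block must have. With at least 20 ends, 72% of blocks at the 8 loci (57.5 to 83.8) and 62.0% elsewhere (56.5 to 67.2) were sharp, and with at least 5 ends 67.1% (55.8 to 77.1) and 19.5% (18.1 to 20.9), where the first includes the short Tet2 runs. The loci were chosen for such blocks, so the difference is a description.

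**Figure D5:**
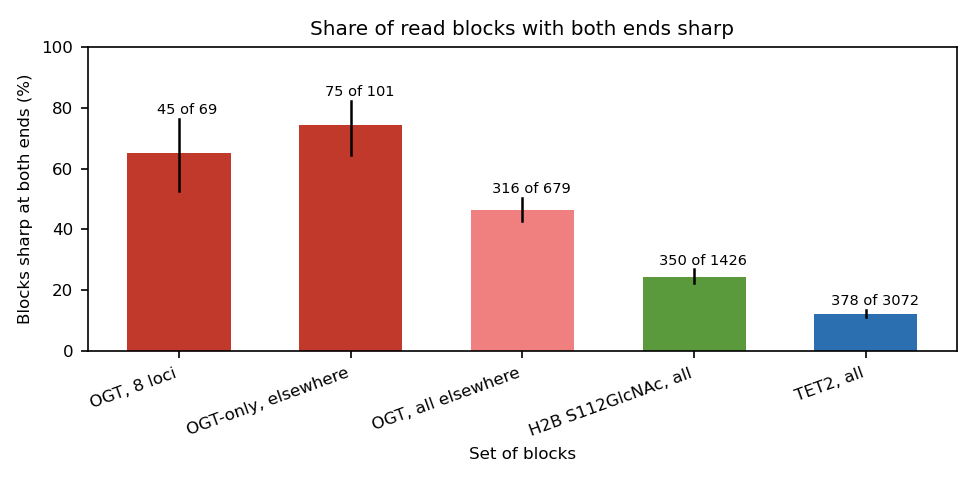
Percent of read blocks with both ends sharp in 5 sets of blocks, with exact 95% intervals and the counts above each bar. OGT-only means at least 4 times denser in OGT than in each other library. OGT blocks at the 8 loci stand at 65.2% and OGT-only blocks elsewhere at 74.3%. All H2B S112GlcNAc blocks stand lower, at 24.5%, and all TET2 blocks at 12.3%.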

How the data were processed

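Per the file headers and values, each deposited file lists aligned reads of 44 bp, 1 per line, with a score that is 255 in every line and measures nothing. The submitters' processing notes name build mm9 and list Bowtie 0.12.2 and CASAVA 1.4 without saying what each did. How repeated reads and several matches were handled was not given in the sources used, and either could change block counts. Per the labels' protocols, ligation products of 200 to 600 bp were gel purified and amplified in 20 PCR cycles, so reads are not independent molecules.

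The OGT file's sequence identifiers were converted to chromosome numbers. A read counted in a window or block when it lay wholly inside. Blocks, sharp ends (15 bp) and intervals were computed with numpy 2.4.6, pandas 2.3.3 and scipy 1.17.1 (exact Clopper-Pearson and Poisson). The block caller was tested on simulated data. The simulated blocks were denser than many of those reported here, so that test does not show how sparse blocks are called. The minimum for OGT-only blocks was a 4-fold density over each other library, set after seeing the data.

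Loci, definitions and named blocks (up to 4 per locus with the most ends, and single features named for their values) were chosen with earlier results of these data known. Comparing blocks with exon or coding lengths was planned and not done, since no such lengths of mm9 were used here.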

Additional observations from a re-analysis of the deposited data

How the results depend on the processing

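No paired analysis was possible because there was a single library per antibody. The counts of blocks and of sharp blocks at the 8 loci stayed within 1.5 times under every gap, minimum and tolerance tried, at 50 to 82 and 36 to 55, and at 56 and 35 without Rnf40. The share of sharp OGT blocks elsewhere moved from 46.5% to 54.7% with no gap joined, 36.6% with gaps of 50 bp, 62.0% and 19.5% with at least 20 and 5 ends, 39.0% and 57.6% with tolerances of 10 and 25 bp, and 74.3% over OGT-only blocks. OGT over TET2 moved from 13.2 to 33.1 with all reads, 137.3 in the blocks alone and 11.6 without Rnf40. OGT over H2B S112GlcNAc moved from 13.7 to 34.5, 100.1 and 11.9. Scaling by the median 10 kb bin or drawing libraries down left both within their intervals. Without blocks under 60 bp, 43 blocks at the loci and 43.6% elsewhere were sharp. The settings without Rnf40, without short blocks and over OGT-only blocks were chosen after seeing the data. A stricter tolerance or narrower gap changes sharpness by construction, and for the remaining shifts the cause was not tested. Of 153 values of single loci and lesser measures, 34 moved, and a change of direction was not looked for. The alternatives for exon length were not run. Few TET2 and H2B S112GlcNAc reads limit the densities inside blocks at single loci.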

Other observations

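Sharp OGT blocks within 20 kb of each other formed 25 clusters, of which 7 lay at 6 of the 8 loci (Ints6 held 2) and 18 elsewhere. In 5 of the 18 every block was at least 4 times denser in OGT than in each other library, and in the other 13 none was. The following 8 clusters outside the loci have the most OGT ends, and no gene is named for them because no mm9 annotation was used here.

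Of these 8 clusters, 2 had this 4-fold OGT excess in every block. On chromosome 18 at 7905973 to 7920205, 4 blocks of 72 to 310 bp held 221 OGT, 2 TET2 and 0 H2B S112GlcNAc reads. On chromosome 3 at 90197097 to 90208523, 6 blocks of 65 to 93 bp held 132 OGT, 2 TET2 and 2 H2B S112GlcNAc reads. Chosen after their values were seen, the 3 remaining clusters of this kind had 2 blocks each. They lay on chromosome 7 from 106397224 with 110 OGT reads, on chromosome X from 118448615 with 72, and on chromosome 10 from 83417222 with 53. The other libraries had at most 2 reads each in the first 2 of these, and 12 TET2 and 7 H2B S112GlcNAc reads in the last.

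The other 6 of the 8 clusters held many reads of all 3 libraries. Their blocks were called sharp in the OGT library, and sharpness of the other libraries there was not looked at. On chromosome 9 at 3006209 to 3034712, 8 blocks of 589 to 1722 bp held 11846 OGT, 21582 TET2 and 28713 H2B S112GlcNAc reads. On chromosome 2 at 98502386 to 98507493, 4 blocks held 95030, 166773 and 196591. Smaller ones held 213 OGT, 443 TET2 and 519 H2B S112GlcNAc reads on chromosome 15 from 74915946, and 122, 179 and 216 on chromosome 11 from 3044470. On chromosome 12 from 75905133 the counts were 224, 414 and 549, and on chromosome 14 from 69780044 they were 215, 361 and 369. A sharp end in the OGT library was therefore found both in blocks with a 4-fold OGT excess and in blocks where all 3 libraries had many reads.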
